A study of Homo sapiens with 6 samples.

Results

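The RAB small GTPases were examined in WM164 cells, a human melanoma line from a lymph node metastasis that carries mutant BRAF. Their members were taken by symbol (RAB, a number and at most a letter and a digit), from probe sets annotated to exactly 1 gene symbol, without RAB27A, RAB32 and RAB38, the melanosome RABs. This gave 57 genes of the 18417 that were tested. The Parent group held 3 samples given the vehicle DMSO, for a length of time that the labels do not state. The other 3 samples, called IDTC for induced drug tolerant cells, were kept for 16 days in 500 nM PLX4032 (vemurafenib), which inhibits mutant BRAF. Both groups came from the same line, so every value belongs to 1 genetic background, and nothing in the labels says whether the 3 cultures of a group were started separately. If they were not, the p-values measure spread that is partly technical.

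RAB proteins are molecular switches that give each membrane compartment its identity. Loaded with GTP by exchange factors, a RAB sits on its membrane through a C-terminal lipid and recruits effectors such as motors, tethers and coats. GTPase-activating proteins then return it to the GDP form, which GDI lifts off the membrane for another round. In melanocytes this machinery carries pigment proteins from endosomes to melanosomes and moves melanosomes to the cell edge.

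RNA was measured on whole-transcript arrays. The 6 arrays carried log2 values for 33297 probe sets, with medians of 6.25 to 6.36, and correlated over the tested genes at r = 0.995 to 0.998 within a group and 0.953 to 0.957 between groups. The table has no detection call, so a level of about 5.5 or less may be background. A change in bulk RNA cannot tell fewer cells of a type from less RNA per cell. Of 7 melanocyte lineage markers 5 rose, S100B fell and MITF was not called. SOX10 read 10.67 to 10.78 on the Parent and 11.56 to 11.58 on the IDTC arrays, and PMEL, which forms the melanosome fibrils, 12.51 to 12.54 and 13.36 to 13.43. Among 11 markers of keratinocytes, endothelium, leukocytes and fibroblasts, LUM fell (-0.89 ± 0.14) and the other 10 were not called. Summed on the linear scale, these markers came to 876 to 913 on the Parent and 744 to 793 on the IDTC arrays. This fall lay mainly in LUM, the brightest of them in Parent cells, with log2 means of 8.11 in Parent and 7.21 in IDTC cells. The leukocyte gene PTPRC had means of 3.67 and 3.81, and the endothelial genes PECAM1 4.84 and 4.75 and VWF 5.51 and 5.49. Their part in the results on RAB genes was not tested.

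In the drug-tolerant cells 12 RAB genes rose, 20 fell and 25 were not called, where a gene counts as called if its limma p, adjusted by Benjamini-Hochberg across the 18417 genes, was below 0.05. The share called was 56.1%, against 46.6% of all genes. The family was not matched to all genes for brightness. Only 13 of its 57 genes were among the dimmest 40% of all genes, and whether brightness bears on the called share was not tested. Risers made up 21.1% of the family and 21.7% of all genes, and fallers 35.1% and 24.9%. Called changes of 2-fold or more were seen in 3 RAB genes, RAB17, RAB20 and RAB27B, each of which fell; 9.21% of all genes passed the same rule. The median log2 fold change was -0.082 in the family and -0.015 over all genes. Another 10 RAB genes changed by 0.5 log2 or more, and the remaining 19 calls were smaller. Thus 13 of 57 RAB genes were called at 0.5 log2 or more, beside 4668 of all 18417 genes. The RAB genes not called lay between -0.19 and 0.19.

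**Figure D1:**
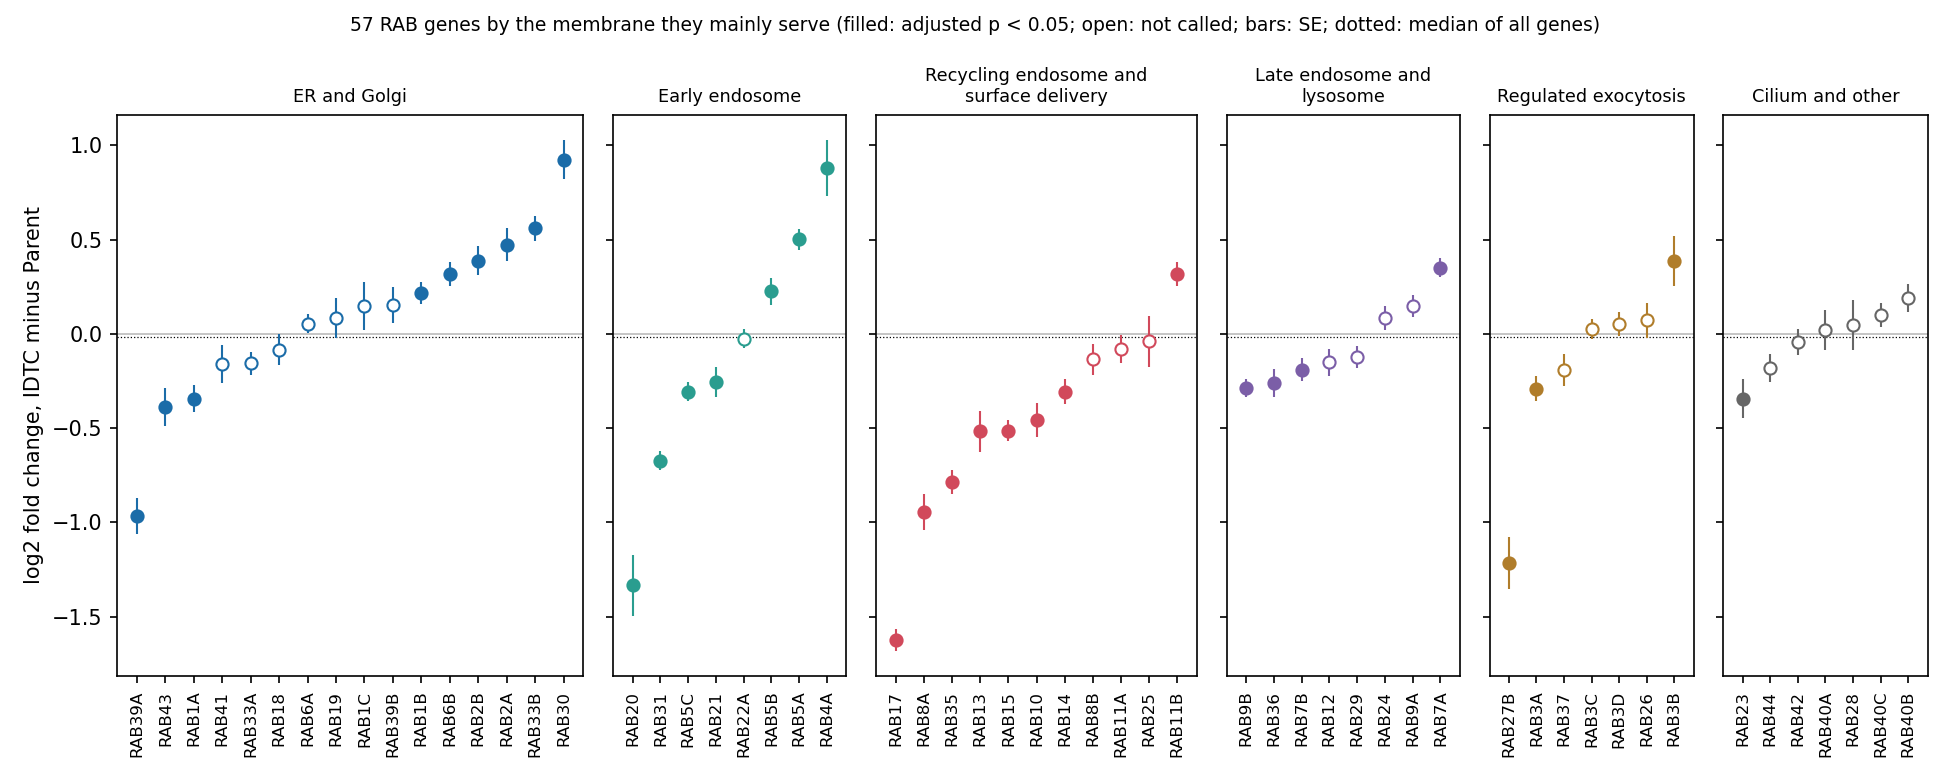
Log2 fold change (IDTC minus Parent) of the 57 RAB genes with its standard error, in 6 panels by the membrane each serves, grouped by hand. Filled points passed an adjusted p of 0.05 and open points did not. In the recycling and surface delivery panel 7 of 11 genes fell, and the ER and Golgi panel holds 6 that rose and 3 that fell.

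The largest change in the family was that of RAB17, a RAB of recycling endosomes best known from polarized epithelia and also from melanocyte filopodia (probe set 8059955). It read 7.78, 7.78 and 7.85 on the Parent arrays and 6.11, 6.24 and 6.20 on the IDTC arrays. The highest IDTC array (6.24) thus lay far below the lowest Parent array (7.78), and the gene fell by 1.62 ± 0.06 log2 (standard error, here and below), or 3.08-fold (adjusted p = 1.04e-06). RAB20, which works on early endosomes and maturing phagosomes (probe set 7972805), read 7.05, 7.36 and 7.20 in Parent and 5.56, 5.85 and 6.21 in IDTC cells. The IDTC arrays were more spread out than the Parent arrays, yet the groups did not overlap, and RAB20 fell by 1.33 ± 0.16 (2.52-fold, adjusted p = 3.38e-04). RAB27B, which docks secretory vesicles and multivesicular bodies at the plasma membrane (probe set 8021301), read 6.57, 6.19 and 6.38 in Parent and 4.90, 5.37 and 5.22 in IDTC cells. Here too the groups were apart, and the gene fell by 1.22 ± 0.14 (2.32-fold, limma adjusted p = 2.42e-04). Its IDTC values lay below 5.5, where a level may be background, so the size of this fall is uncertain.

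**Figure D2:**
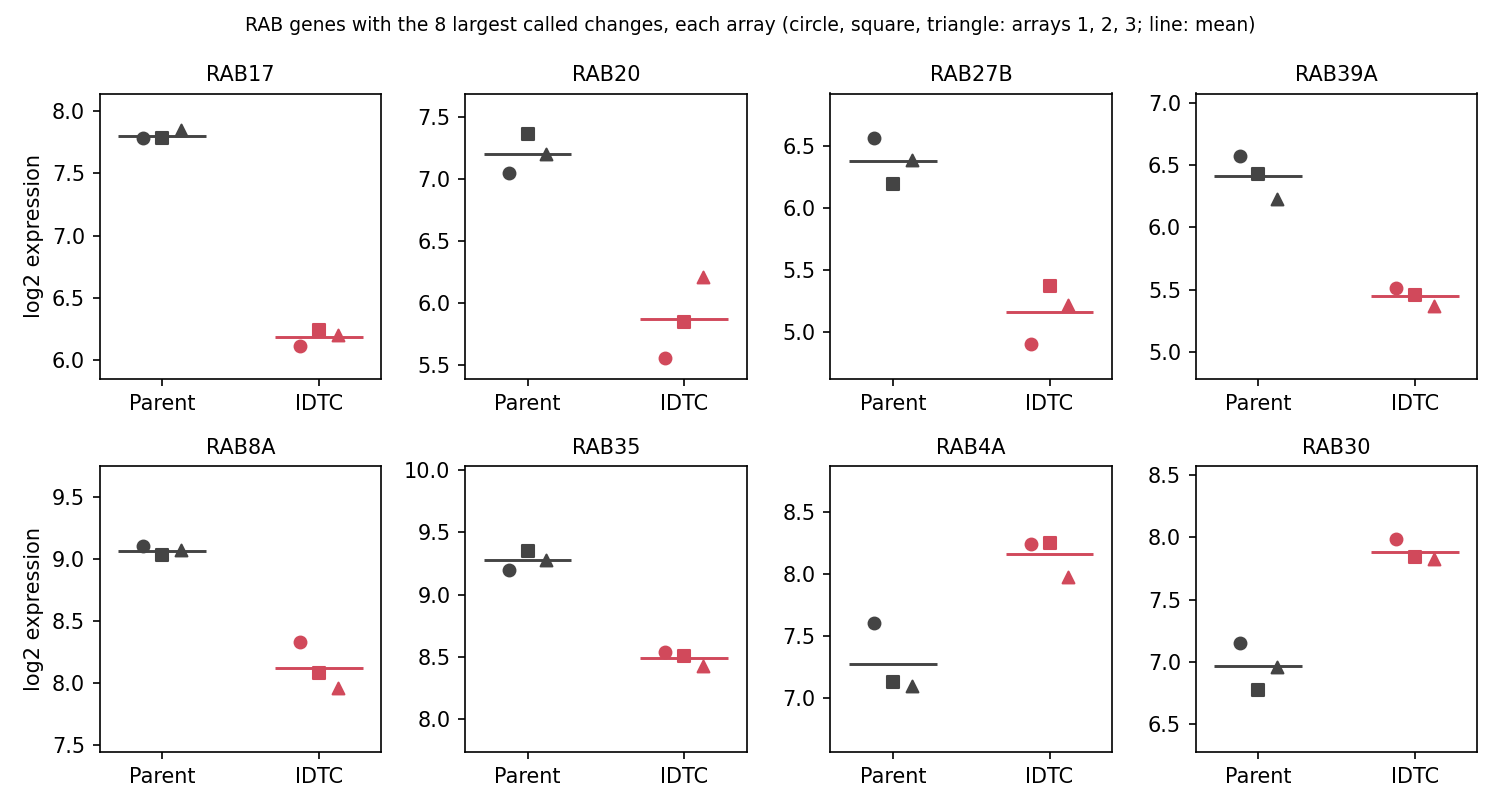
Log2 expression on each array for the 8 RAB genes with the largest called changes, 3 Parent (grey) and 3 IDTC (red) arrays per gene, with the group mean as a line; every panel spans the same log2 range. RAB17, RAB20, RAB27B, RAB39A, RAB8A and RAB35 lie lower on all IDTC arrays, and RAB4A and RAB30 lie higher on all of them.

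RABs of recycling endosomes and delivery to the cell surface fell in 7 of 11 cases, with RAB11B higher and 3 not called (median -0.46). The lower share was 63.6%, against 24.9% of all genes, and the higher share 9.09%, against 21.7%. This split depends on a grouping by hand, made with earlier results known. RAB4A, which also returns cargo to the surface and rose by 0.88, was counted with the early endosome RABs. RAB8A, which sends Golgi and endosomal carriers to the plasma membrane and cilium, read 9.11, 9.03 and 9.07 in Parent and 8.33, 8.08 and 7.96 in IDTC cells. Its arrays did not overlap, and it fell by 0.94 ± 0.10 (adjusted p = 1.33e-04). RAB35, which drives fast recycling from endosomes, read 9.20, 9.35 and 9.28 against 8.54, 8.51 and 8.42. It fell by 0.79 ± 0.06 (adjusted p = 3.89e-05), again with every IDTC array below every Parent array. RAB15 fell by 0.51 ± 0.06 and RAB13, a RAB of cell junctions and the leading edge, by 0.52 ± 0.11. The second probe set of RAB13, which stood slightly lower, changed by -0.54. RAB10, which moves glucose transporter vesicles to the surface, fell by 0.46 ± 0.09, and RAB14, its relative between the Golgi and endosomes, by 0.31 ± 0.07. RAB11B, a marker of the recycling endosome, went the other way, from 10.10, 10.22 and 10.25 to 10.47, 10.46 and 10.58, a rise of 0.32 ± 0.06 (adjusted p = 0.00506). RAB11A (-0.08), RAB8B (-0.14) and the epithelial RAB25 (-0.04, at 3.81 to 4.36 on all arrays) were not called.

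The 8 early endosome RABs were split, with 3 higher (37.5%, against 21.7% of all genes), 4 lower (50%, against 24.9%) and RAB22A not called (-0.03). RAB4A, which returns cargo from early endosomes to the surface, rose from 7.61, 7.13 and 7.09 to 8.24, 8.25 and 7.98. Parent 1 stood above the other Parent arrays and still below all IDTC arrays, and the rise was 0.88 ± 0.15 (1.84-fold, adjusted p = 0.00192). RAB31, which carries cargo between the Golgi and endosomes, fell from 9.92, 9.83 and 9.86 to 9.20 on each IDTC array, a fall of 0.67 ± 0.05 (adjusted p = 3.04e-05). The RAB5 proteins, which direct endosome fusion, did not move together. RAB5A rose by 0.50 ± 0.06, from 9.44, 9.37 and 9.37 to 9.94, 9.91 and 9.83. RAB5B rose by 0.23 ± 0.07, and RAB5C fell by 0.31 ± 0.05, from 12.18, 12.11 and 12.18 to 11.84, 11.87 and 11.84. RAB21, which binds integrins on endosomes, fell by 0.26 ± 0.08. The call of RAB5B was lost without any single array other than IDTC 3 (adjusted p = 0.061 to 0.124). That of RAB21 was lost without any single array other than IDTC 1 (0.0646 to 0.1), and also after re-centring (0.077) or quantile normalization (0.121).

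Among 16 RABs of the endoplasmic reticulum and Golgi, 6 rose (37.5%, against 21.7% of all genes), 3 fell (18.8%, against 24.9%) and 7 were not called (median 0.12). RAB30, a Golgi RAB, had the largest rise in the family, from 7.15, 6.77 and 6.96 to 7.99, 7.84 and 7.83. No arrays of the groups overlapped, and the rise was 0.92 ± 0.10 (1.90-fold, adjusted p = 2.09e-04). RAB33B, a Golgi RAB that binds an autophagy complex, rose by 0.56 ± 0.07, from 7.50, 7.38 and 7.46 to 7.96, 8.10 and 7.96. Both RAB2 genes, which act between the endoplasmic reticulum and the Golgi, rose, RAB2A by 0.47 ± 0.09 and RAB2B by 0.39 ± 0.08, as did RAB6B by 0.32 ± 0.06. The fallers were RAB39A (0.97 ± 0.09 lower, from 6.58, 6.43 and 6.23 to 5.51, 5.46 and 5.36), RAB43 (0.39 ± 0.10 lower) and RAB1A (0.34 ± 0.07 lower). On the IDTC arrays RAB39A stood at about 5.5 or less, where a level may be background. RAB1A and RAB1B, which both serve the first step from the endoplasmic reticulum to the Golgi, moved apart. RAB1A read 10.86, 10.71 and 10.67 in Parent and 10.48, 10.39 and 10.33 in IDTC cells, while RAB1B rose by 0.22 ± 0.06, from a mean of 11.08 to one of 11.30, again without overlap. RAB1C, a pseudogene in RefSeq, was not called (0.15), and whether its probes also read RAB1A was not tested. RAB1B lost its call without Parent 2, Parent 3 or IDTC 2 (adjusted p = 0.056 to 0.0741), and RAB43 without Parent 3 (0.0615).

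Of 8 RABs of late endosomes and lysosomes 1 rose, 3 fell and 4 were not called, so that 50% were called, near the 46.6% of all genes, with log2 fold changes between -0.29 and 0.35. RAB7A, the main RAB of late endosomes and lysosomes, rose by 0.35 ± 0.05 (adjusted p = 9.06e-04), from 12.42, 12.41 and 12.38 to 12.79, 12.76 and 12.72, with the arrays of a group close together and the groups apart. Its dimmer probe set changed more, by 1.00 ± 0.19 (limma adjusted p = 0.00365 in a fit of all probe sets). RAB9B fell by 0.29 ± 0.05, RAB36 by 0.26 ± 0.07 and RAB7B by 0.19 ± 0.06, while RAB9A, which returns receptors from late endosomes to the Golgi, was not called (0.15). RAB36 lost its call after re-centring (adjusted p = 0.0584) and without Parent 2, Parent 3, IDTC 1 or IDTC 2 (0.0591 to 0.0822). RAB7B lost it after re-centring (0.155), with a trended robust prior (0.0953) and without the same 4 arrays (0.106 to 0.133).

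Of 7 RABs of regulated exocytosis, RAB27B and RAB3A fell, RAB3B rose and 4 were not called. The called share of 42.9% was near the 46.6% of all genes. RAB3A, the synaptic vesicle RAB, fell by 0.29 ± 0.07, from 9.69, 9.50 and 9.51 to 9.28, 9.26 and 9.27, without overlap. RAB3B read 4.85, 5.26 and 5.19 in Parent and 5.67, 5.29 and 5.49 in IDTC cells, a low level with adjoining groups (0.39 ± 0.13, adjusted p = 0.0477). The call of RAB3A was lost after quantile normalization (adjusted p = 0.0606), as was that of RAB3B (0.0552), which was also lost with a replicate block (0.0664) and without Parent 1, Parent 3, IDTC 1 or IDTC 3 (0.0822 to 0.141). In the last group, of 7 genes with roles at the cilium or elsewhere, RAB23, a brake on Hedgehog signalling, fell by 0.34 ± 0.10. The other 6 were not called, with RAB40B highest (0.19), and the called share was 14.3%, against 46.6% of all genes. RAB23 lost its call without any single Parent array or IDTC 2 (0.053 to 0.0827).

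RAB paralogs, closely related genes that share a compartment, offered 22 pairs in which the change in one gene could be set against that in the other on the same arrays. In 9 pairs the fold changes differed by 0.5 log2 or more. Some genes, such as RAB5C, belong to several pairs. Unrelated pairs of genes were not counted in the same way, so the counts of pairs have no baseline. With the brightest probe set of each gene, the widest pair was RAB39A and RAB39B, whose difference (RAB39A minus RAB39B) went from 2.60 ± 0.24 (SD, n = 3) in Parent to 1.48 ± 0.25 in IDTC cells, a change of -1.12 (exact permutation test over the 6 arrays, 2-sided, p = 0.1). RAB39B stood at 3.73 to 4.17 on all arrays, so this pair rests on RAB39A. Next were RAB5A against RAB5C (0.81) and RAB8A against RAB8B (-0.81), followed by RAB33A against RAB33B (-0.72), RAB3A against RAB3B (-0.68) and RAB22A against RAB31 (0.65). RAB1A against RAB1B (-0.56), RAB7A against RAB7B (0.54) and RAB5B against RAB5C (0.53) made up the rest. With the dimmer RAB7A probe set in its place, RAB7A against RAB7B came to 1.19, above the 1.12 of RAB39A and RAB39B. Of all genes 21.7% were called higher and 24.9% lower, and in 5 pairs both genes were called in opposite directions. Of these, only RAB5A and RAB5C kept both calls in each alternative setting, since RAB1B, RAB3A, RAB3B, RAB5B and RAB7B each lost theirs in some. RAB2A and RAB2B differed by 0.08, with the difference at 0.89 ± 0.05 (SD, n = 3) in Parent and 0.97 ± 0.06 in IDTC cells. In 16 pairs, these 9 among them, the exact permutation p was 0.1, the smallest that 3 against 3 arrays allow, and 0.138 after Benjamini-Hochberg adjustment over the 22 pairs, so none could pass the threshold.

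**Figure D3:**
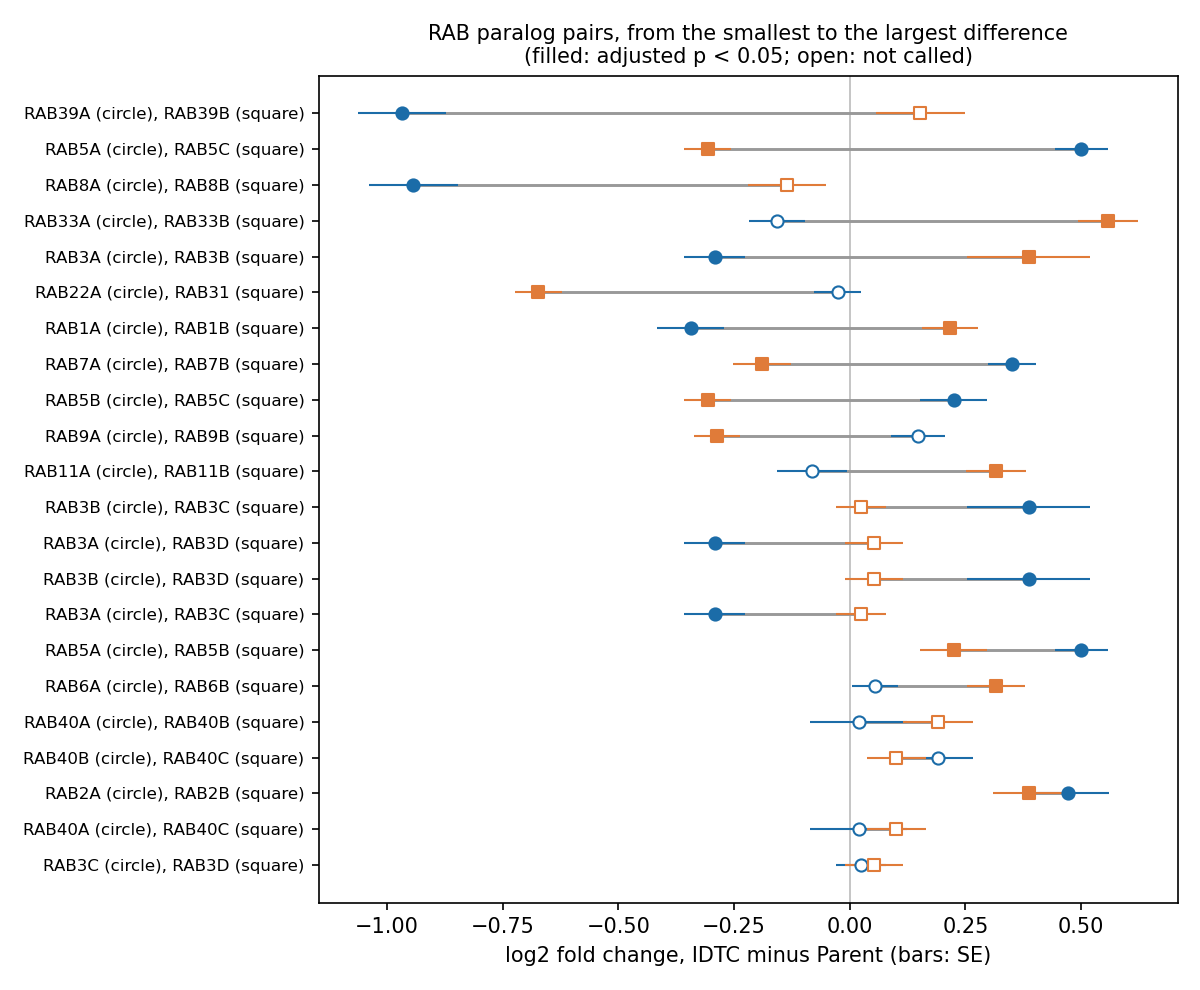
Log2 fold changes (IDTC minus Parent, bars are standard errors) of both genes in 22 RAB paralog pairs, ordered by the size of their difference; filled symbols were called. RAB39A and RAB39B lie farthest apart (1.12), and RAB3C and RAB3D closest together (0.028).

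Promoter sequence was available in the RefSeq promoter table (GRCh38.p14) for 44 of the 57 genes and was searched on both strands over the 250 bases before each listed start. TCACGTG, an E-box that MITF and its relatives bind, was present in 4 of the 44 genes (9.09%) and in 4.02% of all genes of the table. TCATGTG, the other form bound by MITF, was present in 1 gene (2.27%, and 3.11% of all genes). CCAAT, the box bound by NF-Y, was present in 4 of 10 risers (40%), 4 of 16 fallers (25%) and 37% of all genes. MITF itself was not called (-0.04 ± 0.06). The E-box genes were RAB17, RAB21 and RAB31, which fell, RAB5A, which rose, and RAB24, which was not called (0.08). The upstream stretches of the 4 called genes, chosen after the matches were seen, are shown 5′ to 3′ as the sequences behind these counts. Capitals mark the match on either strand, including the overlap where both strands match.
RAB17, chr2:237590735-237590834, - strand: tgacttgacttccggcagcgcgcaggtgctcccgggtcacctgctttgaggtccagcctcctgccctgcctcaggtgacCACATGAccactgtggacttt
RAB21, chr12:71754763-71754862, + strand: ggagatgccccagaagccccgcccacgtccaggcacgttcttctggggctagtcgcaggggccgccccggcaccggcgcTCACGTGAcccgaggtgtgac
RAB31, chr18:9708201-9708300, + strand: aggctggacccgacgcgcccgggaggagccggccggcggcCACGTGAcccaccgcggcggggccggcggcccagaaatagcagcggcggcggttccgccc
RAB5A, chr3:19946936-19947035, + strand: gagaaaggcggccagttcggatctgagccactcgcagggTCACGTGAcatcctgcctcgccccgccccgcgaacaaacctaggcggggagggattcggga
The stretches of RAB17, RAB21 and RAB31 end at the base before the annotated start and that of RAB5A ends 61 bases before it. RAB17 holds the TCATGTG form on the opposite strand, and the others hold TCACGTG. A match is a description of these letters and shows no binding.

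Genes whose products load, unload and use RAB proteins were described by the same calls. Over 8 lists with 170 measured genes, 66 rose, 38 fell and 66 were not called, so that 61.2% were called, against 46.6% of all genes. The lists were not matched to all genes for brightness. Among 33 exchange factors 11 rose (33.3%, against 21.7% of all genes) and 8 fell (24.2%, near the 24.9% of all genes), with a median of 0.11. The largest changes were the rises of DENND5B, a DENN-domain protein (1.50 ± 0.09), the RAB5 exchange factor RIN2 (1.03 ± 0.07), HPS4, which with HPS1 activates melanosome RABs (1.01 ± 0.07), and SBF2 (0.91 ± 0.07). TRAPP, the multisubunit exchange complex for RAB1 and RAB11, had 3 of 14 subunit genes higher and TRAPPC4 lower. Its higher share of 21.4% was near that of all genes, and its called share of 28.6% was below it. TRAPPC4 fell by 1.01 ± 0.07, and TRAPPC9 (0.78 ± 0.05), TRAPPC6A (0.68 ± 0.11) and TRAPPC11 (0.22 ± 0.06) rose, the last without a call when Parent 3 was left out (adjusted p = 0.0557).

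GTPase-activating proteins rose in 17 of 40 cases (42.5%, against 21.7% of all genes) and fell in 7 (17.5%, against 24.9%), with a median of 0.14. TBCK rose by 1.53 ± 0.09, RABGAP1 by 1.05 ± 0.07 and EVI5 by 0.89 ± 0.11. TBC1D4, which inactivates RAB8A, RAB10 and RAB14, fell by 1.35 ± 0.09, from 9.64, 9.58 and 9.68 to 8.37, 8.38 and 8.09 without overlap. A list of genes for RAB prenylation and membrane extraction also held general CAAX-processing genes. Its median was -0.39. Of its 10 genes 6 fell (60%, against 24.9% of all genes) and 2 rose (20%, near the 21.7% of all genes). The CAAX-processing genes ZMPSTE24, RCE1 and ICMT, not specific to RABs, were among those that fell. In the whole list the CAAX protease gene ZMPSTE24 (-0.72 ± 0.05), the RAB escort protein gene CHML (-0.69 ± 0.07), RABGGTA, a subunit of the RAB geranylgeranyl transferase (-0.62 ± 0.05), and GDI2, which extracts RABs from membranes (-0.47 ± 0.05), fell most.

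Effectors rose in 21 of 50 cases (42%, against 21.7% of all genes) and fell in 12 (24%, near the 24.9% of all genes), with a median of 0.08. MLPH, which links RAB27A to myosin Va on melanosomes, rose by 2.85 ± 0.09, the inositol phosphatase gene INPP5B by 1.51 ± 0.05 and KIF20A, a RAB6-binding kinesin that also acts in cytokinesis, by 1.20 ± 0.06. MYO5B, the motor that moves RAB11 and RAB8 recycling vesicles, fell by 1.16 ± 0.09, from 6.99, 6.72 and 6.74 to 5.71, 5.57 and 5.71. The tethers HOPS and CORVET, which act with RAB7 and RAB5 in endosome and lysosome fusion, had 4 of 7 subunit genes higher and VPS33A lower (median 0.79). The higher share was 57.1%, against 21.7% of all genes, and the lower share 14.3%, against 24.9%. VPS33A changed by -0.17 ± 0.06 (limma adjusted p = 0.0408), and its call was lost after re-centring (0.16), quantile normalization (0.167) or the replicate block (0.0606), and without any single array other than Parent 2 (0.0642 to 0.113). VPS39 read 8.88, 8.79 and 8.90 in Parent and 10.43, 10.41 and 10.38 in IDTC cells, a rise of 1.55 ± 0.06, with VPS41 (1.16 ± 0.05), VPS11 (0.91 ± 0.06) and VPS8 (0.79 ± 0.08) also higher. Exocyst genes, which tether carriers at the plasma membrane, rose in 6 of 9 cases (66.7%, against 21.7% of all genes), with a median of 0.43. Among the risers were EXOC6B (0.62 ± 0.08), EXOC4 (0.61 ± 0.06) and EXOC3 (0.60 ± 0.05). EXOC6 fell by 0.73 ± 0.09, a lower share of 11.1%, against 24.9% of all genes. RAB-like genes were called in 4 of 7 cases (57.1%, against 46.6% of all genes). Of these, CRACR2A (-0.67 ± 0.08) and RASEF (-0.58 ± 0.07) fell and IFT22 (0.34 ± 0.06) and IFT27 (0.31 ± 0.10) rose. A dimmer probe set of CRACR2A moved the other way (0.70), and IFT27 lost its call with a replicate block and without any single array other than IDTC 2 (adjusted p = 0.0511 to 0.129).

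**Figure D4:**
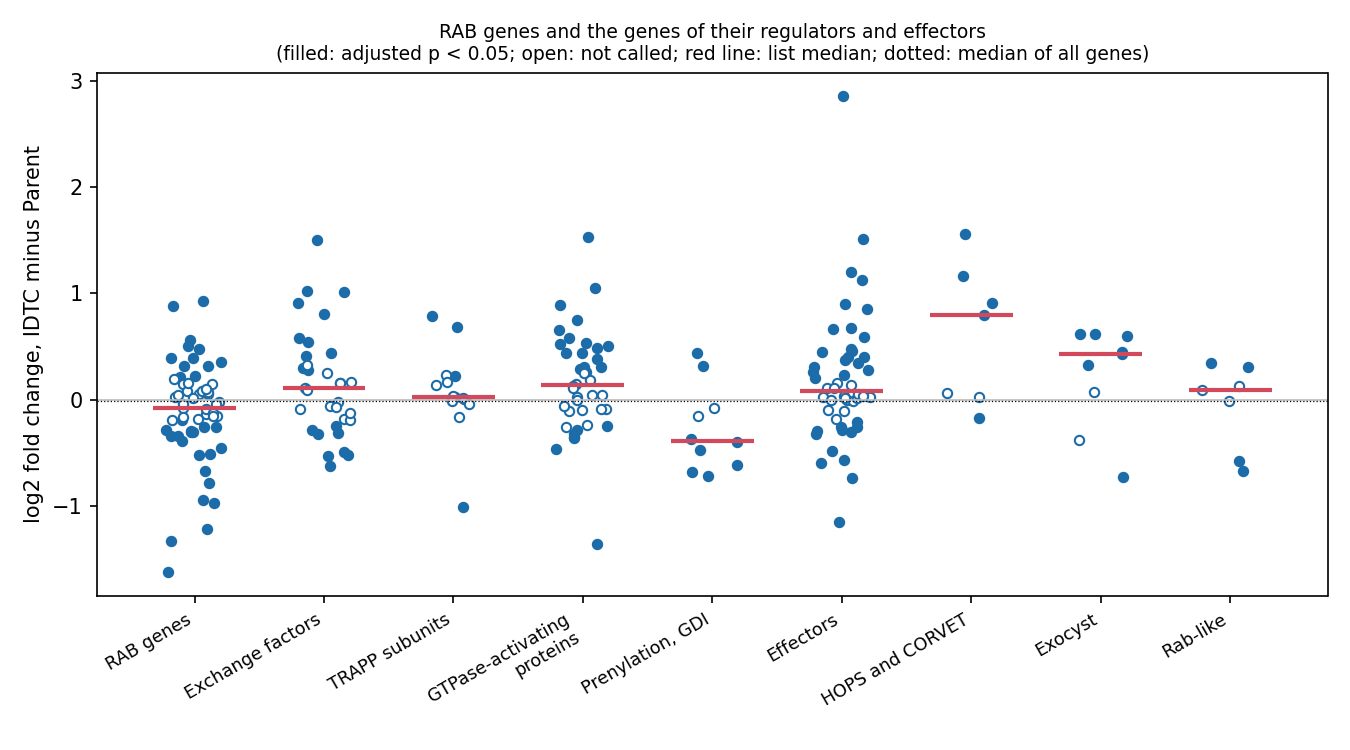
Log2 fold changes (IDTC minus Parent) of the 57 RAB genes and of 8 lists of genes that regulate or bind RAB proteins; each point is a gene, filled where called, and the red line is the list median. Medians run from -0.39 for the prenylation and GDI list, which includes CAAX-processing genes, to 0.79 for HOPS and CORVET, and the RAB median is -0.082.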

How the data were processed

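The deposited table held log2 expression values that the authors had normalized. RMA, Affymetrix Expression Console and Partek 6.6 appear, without roles or order, per the submitters' processing notes; the build is not given in the sources used. Probe sets were named through the platform annotation, and where a gene had several, the brightest by its 6-array mean was used. A linear model with an empirical Bayes variance (limma 3.58.1, R 4.3.3) was fitted to all 18417 genes as IDTC minus Parent, 2-sided, without covariates or a filter on dim genes. Paralog pairs were tested with exact permutation of the 6 arrays. The number of arrays limits precision, and with no detection call the changes of dim genes may be understated.

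The RAB symbols RAB34, RAB4B, RAB6C and RAB6D occurred only on probe sets with several symbols and were left out. By rule, RAB genes called at 2-fold or more are given array by array, those called at 0.5 log2 or more are named, as are the extremes of each compartment group and paralog pairs; other names and array values were chosen after they were seen. From each partner list up to 4 called genes with the largest change are named. Members, compartment groups and lists were chosen with earlier results of these data known, so no list was tested. On simulated data with 200 changed genes among 18417, the fit recovered 56% of 50 genes changed by 0.5 log2 and 94% of 50 changed by 1. In the data 8588 genes were called, which makes the adjusted threshold less strict than in the simulation. These rates therefore do not describe recovery in the data. Alternatives were re-centring, quantile normalization, a filter on dim genes, another probe set, a trended robust prior, a replicate block and leaving out each array.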

Additional observations from a re-analysis of the deposited data

How the results depend on the processing

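Of the 32 called RAB genes, 23 kept their call and direction in each of the 12 alternatives that could give a value, 9 lost the call in at least 1, and none reversed. RAB17, RAB20, RAB8A, RAB35, RAB31, RAB4A, RAB30, RAB33B and RAB5A were among the 23. The filter that left out the dimmest 40% of genes gave no value for 13 members, RAB27B and RAB39A among them. The family counts stayed at 9 to 14 higher and 15 to 20 lower. The family median was -0.019 after re-centring the arrays on their medians and -0.044 after quantile normalization, where the median of all genes was 0.048 and -0.013, and ran from -0.12 to -0.051 when single arrays were left out. RAB6A, RAB9A, RAB33A and RAB40B gained a call in at least 1 alternative.

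With the sample number as a replicate block, limma called 8855 genes, and 11 RAB genes higher and 20 lower. Deviations of same-numbered arrays correlated at 0.315, -0.192 and 0.260, and 3 of 6 arrays correlated best with their own number. With so few arrays this check cannot tell whether the numbers pair the samples.

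Small counts moved most. TRAPP genes called lower numbered 2 without the dimmest 40% of genes and with a trended robust prior, and 1 to 2 without single arrays. Exocyst genes called lower numbered 2 in those settings and with the block, and 1 to 2 without single arrays. The single HOPS and CORVET gene called lower, VPS33A, gave a count of 0 in limma after re-centring or quantile normalization (0 at an unadjusted p under 0.05) and with the block (1 at an unadjusted p under 0.05), and 0 to 1 without single arrays. RAB-like genes called higher numbered 1 with the block and 1 to 2 without single arrays, and those called lower 1 without the dimmest genes and with the lowest-mean probe set, where CRACR2A reversed to 0.70. For these counts the cause was not tested. Without the dimmest genes, 5 paralog pairs differed by 0.5 log2 or more, because the filter removed a gene from each of the other 4.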
